A study of Mus musculus with 4 samples.

Results

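The 10 genes described here, of serine synthesis, threonine breakdown and folate one-carbon metabolism, were followed in RNA-seq of mouse embryonic stem cells (mESCs). They were chosen by name, with earlier results of these data known. They are *Phgdh*, *Psat1*, *Psph*, *Shmt1*, *Shmt2*, *Mthfd2*, *Mthfd1l*, *Tdh*, *Gcat* and *Gldc*, and all 10 were found among the 37310 genes of the deposited count table. The 2 groups hold 2 libraries each. The control is HATX, a wild-type (WT) line, and it is set against a *Spen* knockout (KO) made in HATX, clone 2. *Spen* encodes a large nuclear protein with RNA recognition motifs that acts as a transcriptional corepressor. Both lines carry an *Xist* transgene that doxycycline can induce, come from a mixed genomic background, are described by the study as haploid, and were grown in serum and LIF on gelatin. The labels give no treatment. Each group is 1 line, and the KO is 1 clone, so clonal differences and loss of *Spen* cannot be told apart. Nothing in the labels says that the libraries of a group came from separate cultures, so p-values measure only the spread between these libraries, which may be technical.

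Serine is made from a glycolytic intermediate in 3 enzymatic steps. Serine hydroxymethyltransferases move a carbon from serine to tetrahydrofolate and leave glycine, and mitochondrial folate enzymes pass that carbon on as formate for purine and thymidine synthesis. mESCs are known for an unusual dependence on threonine, which they split in mitochondria into glycine and acetyl-CoA, and the glycine cleavage system releases a further carbon from glycine.

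The WT libraries held 36667685 and 43835004 counts in total, fewer than the 54715889 and 61908422 of those labelled KO. All values below are counts divided by DESeq2 size factors (normalized counts) unless stated. *Spen* had 3716 and 3047 normalized counts in WT and 7797 and 6242 in the KO-labelled libraries, a log2 fold change of 1.05 ± 0.21 (SE). RNA counted over the whole gene was thus higher in the libraries labelled KO. By the study's description all or most of *Spen* is deleted in the KO, and loss of counted exons alone would lower these counts. The study also reports that *Spen* mRNA rose when Spen protein was lost. Counts over the whole gene therefore cannot check the label. The table holds 1 count per gene and does not show which exons the reads came from, and Spen protein is not measured in these libraries. The directions given here take the label as it stands. All 8 mESC markers examined were detected, from *Zfp42* at 3517 ± 24.5 to *Dppa5a* at 49200 ± 2750 (SD, n = 2) in WT. Both of these rose with the KO label, by 0.23 and 0.28 on the log2 scale, the other 6 did not pass, and 0 were lower by DESeq2. Of 6 fibroblast markers, 1 (*Thy1*) was higher in the KO-labelled libraries and 3 others were tested and did not pass. The summed level of that list was 172 and 183 in WT against 420 and 479, most of it *Thy1* alone at 118 and 137 against 356 and 414, with *Postn* at 0 in both WT libraries and *Lum* at 0 in both KO-labelled ones. Of 6 primitive endoderm markers, 2 (*Lama1* and *Gata4*) were lower, 3 were tested and did not pass, and *Sox17*, the lowest, was at 7.86 and 6.61 in the group means. The sum was 3781 and 3731 against 1263 and 1330, most of it *Lama1* alone at 3450 and 3337 against 1056 and 1142, and none was at 0 in a whole group. The part of these marker lists in the results below was not tested. Where a value is lower, fewer cells expressing a gene and less RNA per cell cannot be told apart in these bulk libraries.

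Of the 10 enzyme genes, 7 were lower in the KO-labelled libraries at an adjusted p under 0.05 (DESeq2, adjusted over all genes tested), *Shmt1* was higher, and *Psph* and *Tdh* did not pass. The count of lower genes was 6 without WT replicate 1, 4 without WT replicate 2, 4 without KO-labelled replicate 1 and 5 without KO-labelled replicate 2, and *Shmt1* lost its call without replicate 2 of either group. *Gldc* changed most, falling to 0.43 of its WT level. *Phgdh* and *Mthfd1l* followed at 0.56 and 0.57. The other 4 lower genes, *Psat1*, *Mthfd2*, *Shmt2* and *Gcat*, lay between 0.81 and 0.86 of the WT level. By the same rule 32.3% of all 17710 genes tested passed, 15.8% as lower and 16.4% as higher. Genes with high counts pass more readily, and of the 3815 genes with a mean at least that of the lowest enzyme gene, 52.6% passed, 17.5% as lower and 35.2% as higher. The thresholds used by the study, a 2-fold change together with an adjusted p below 0.001, were met among the 10 by *Gldc* alone, and over all genes by 3.15% as lower and 1.36% as higher. Without the 2-fold minimum, *Gldc*, *Phgdh*, *Mthfd1l* and *Psat1* (4 genes) were lower and 0 higher by DESeq2, where 8.87% of all genes were lower and 8.46% higher. With the median of each chromosome removed before the fit, 6 of the 10 were lower, 0 higher and 1 (*Gldc*) met the 2-fold thresholds, beside 14.8%, 12.4% and 3.16% of all genes. The median log2 fold change of the 10 was -0.25, against 0.00 (0.0049) for all genes tested. The KO-labelled and WT libraries did not overlap in any of the 10 genes, 9 lower and 1 higher, and 70.2% of all genes tested had no overlap, 34.8% lower and 35.4% higher. Among the 3815 genes of similar or higher mean, 78.6% had none, with 27.4% of the 3815 lower.

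The sequence upstream of the start is shown for *Gldc*, *Phgdh* and *Mthfd1l*, because these 3 genes fell most. Each run gives the 250 bases before the RefSeq transcript start (GRCm38.p6), and each was found once, unchanged, on its chromosome in NCBIM37 (mm9), the build of the count table. The mm9 positions are chr19:30249932-30250181 for *Gldc*, chr3:98143893-98144142 for *Phgdh* and chr10:6373467-6373716 for *Mthfd1l*, all on the minus strand. Capitals mark each CCAAT or its reverse complement ATTGG.
Gldc: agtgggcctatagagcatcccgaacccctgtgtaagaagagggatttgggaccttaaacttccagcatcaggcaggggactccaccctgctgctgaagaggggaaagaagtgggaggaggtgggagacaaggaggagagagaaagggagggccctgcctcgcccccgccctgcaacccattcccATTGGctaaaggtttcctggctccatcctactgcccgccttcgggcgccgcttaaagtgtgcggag
Phgdh: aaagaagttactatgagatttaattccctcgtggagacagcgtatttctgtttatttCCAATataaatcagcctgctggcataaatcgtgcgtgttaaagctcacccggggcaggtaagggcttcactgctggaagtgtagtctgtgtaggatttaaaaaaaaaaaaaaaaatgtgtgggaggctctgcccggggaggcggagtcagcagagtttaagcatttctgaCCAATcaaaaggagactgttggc
Mthfd1l: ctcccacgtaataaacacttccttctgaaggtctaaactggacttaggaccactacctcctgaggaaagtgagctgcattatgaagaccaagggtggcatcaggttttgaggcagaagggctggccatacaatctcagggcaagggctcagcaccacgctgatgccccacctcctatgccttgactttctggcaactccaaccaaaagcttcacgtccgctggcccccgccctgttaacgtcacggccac

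The table of RefSeq windows, each with 250 bases before and 50 after a start, matched 9 of the 10 genes, in 10 windows. CCAAT, searched on both strands and chosen after the sequences were seen, was found in 6 of the 9 genes. *Psat1* has 2 windows, and 1 of them held none. By window it was thus in 6 of the 10, beside 37.4% of all 32851 windows. *Mthfd2* and *Psat1* held 3 matches each, *Phgdh* and *Psph* 2, and *Gldc* and *Shmt1* 1, while the windows of *Shmt2*, *Mthfd1l* and *Gcat* held none. The letters TGATGNAA, an element bound by ATF4, were in none of the 10 windows and in 3.97% of all. The E-box CACGTG was in the *Gcat* window alone and in 7.15% of all. Matches of the 3 motifs did not overlap each other. These matches are descriptions of letters and not of binding. The genes with a CCAAT include the one that rose, *Shmt1*, and *Psph*, which did not pass.

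Serine synthesis was taken first. *Phgdh* (ENSMUSG00000053398.5, mm9 chr3:98117093-98143913, minus strand) encodes phosphoglycerate dehydrogenase, the entry step of the pathway. It had 11472 and 11499.6 normalized counts in WT and 6485 and 6383 with the KO label. Both KO-labelled libraries lay far below both WT ones, and each pair differed by little. On the log2 scale the change was -0.84 ± 0.07 (SE), and the adjusted p from DESeq2 was 3.05e-32. Stretches of at least 75 bases at 97% identity or more lie elsewhere in the genome for 68.5% of its exonic bases, so its count is uncertain. Pseudogenes annotated on those stretches (4 of them) held 71 and 86 counts in WT and 42 and 79 in the KO-labelled libraries, which is 0.564% to 0.969% of the count of *Phgdh* in the same library.

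*Psat1* (ENSMUSG00000024640.3, mm9 chr19:15979168-16021827, minus strand) encodes phosphoserine aminotransferase, the middle step. It had 35261 and 34438 normalized counts in WT and 27293 and 29410.3 in the KO-labelled libraries. Its log2 fold change was -0.30 ± 0.07 (SE), with an adjusted p of 6.8e-05 by DESeq2. *Psph* (ENSMUSG00000029446.7, chromosome 5), the phosphatase of the last step, had 2768 and 2918 in WT and 2534 and 2614 with the KO label. The KO-labelled libraries were below both WT libraries, but the log2 fold change of -0.14 did not pass (95% interval -0.32 to 0.03, adjusted p = 0.226 by DESeq2). Of the 3 genes, that of the entry step had the largest fold change.

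The serine hydroxymethyltransferase genes had log2 fold changes of opposite sign. *Shmt2* (ENSMUSG00000025403.3, mm9 chr10:126954195-126959491, minus strand), the mitochondrial enzyme, had 10918 and 12593 normalized counts in WT and 9955 and 9794 with the KO label. The WT libraries differed from each other by more than the lower of them differed from either KO-labelled library. The log2 fold change was -0.25 ± 0.08 (SE, DESeq2 adjusted p = 0.00767). *Shmt1* (ENSMUSG00000020534.8, mm9 chr11:60601606-60625220, minus strand), the cytosolic enzyme, had 9575 and 9229 in WT and 10765 and 11188 in the KO-labelled libraries. Its log2 fold change was 0.22 ± 0.07 (SE, DESeq2 adjusted p = 0.00586). Neither call was firm. With the median of each chromosome removed, *Shmt2* turned to 0.09 and *Shmt1* fell to 0.06, with DESeq2 adjusted p of 0.441 and 0.61. Without WT replicate 2, *Shmt2* was at -0.14 (adjusted p = 0.333) and *Shmt1* at 0.20 (0.127). Without KO-labelled replicate 2 the values were -0.24 (0.13) and 0.20 (0.162), and *Shmt2* was also lost without KO-labelled replicate 1, at -0.26 (0.0825). Over all alternatives the adjusted p ran from 0.00246 to 0.441 for *Shmt2* and from 0.00714 to 0.61 for *Shmt1* (DESeq2 or edgeR). *Smcr8*, on the other strand, shares 4.74% of the exonic bases of *Shmt1*, and *Ndufa4l2* shares 0.614% of those of *Shmt2*.

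*Mthfd1l* and *Mthfd2*, which act in the mitochondrial folate pathway, were lower. *Mthfd1l* (ENSMUSG00000040675.11, mm9 chr10:6179460-6373423, minus strand) encodes the enzyme that releases formate from mitochondrial folate. It had 5925 and 5676 normalized counts in WT and 3234 and 3384 with the KO label. The groups stood well apart, with a log2 fold change of -0.81 ± 0.08 (SE) and a DESeq2 adjusted p of 1.03e-22. Part of this size was shared with its chromosome: with chromosome medians removed the value was -0.46, still past the threshold (adjusted p = 9.75e-08; 2.71e-23 to 1.58e-06 over all alternatives).

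*Mthfd2* (ENSMUSG00000005667.6, mm9 chr6:83255685-83267600, minus strand) encodes the mitochondrial methylenetetrahydrofolate dehydrogenase, which acts just before MTHFD1L. It had 7735 and 7829 normalized counts in WT and 6424 and 6608 with the KO label. The log2 fold change was -0.26 ± 0.07 (SE, DESeq2 adjusted p = 0.00172). The call was lost without WT replicate 2 (-0.24, adjusted p = 0.071) and without KO-labelled replicate 1 (-0.23, 0.0955), within a range of 9.2e-05 to 0.0955 over all alternatives.

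Of the threonine breakdown genes, *Gcat* passed the test and *Tdh* did not. *Tdh* (ENSMUSG00000021953.8, mm9 chr14:64111184-64127929, minus strand) encodes threonine dehydrogenase, the enzyme behind the threonine dependence of mESCs. It had 22891 and 23793 normalized counts in WT and 22678 and 22320.5 in the KO-labelled libraries. Its log2 fold change was -0.05 ± 0.06 (SE), with a 95% interval of -0.18 to 0.07 and a DESeq2 adjusted p of 0.595. Near-identical stretches elsewhere cover 12.4% of its exonic bases, and *Gm17232*, on the other strand, shares 2.52%. *Gcat* (ENSMUSG00000006378.7, mm9 chr15:78861304-78873988, plus strand), whose enzyme splits the product of TDH into glycine and acetyl-CoA, had 4254.5 and 3993 in WT and 3461 and 3656 with the KO label. The log2 fold change was -0.21 ± 0.08 (SE, DESeq2 adjusted p = 0.037). Every fit without 1 library lost this call, with adjusted p of 0.361 and 0.11 without WT replicates 1 and 2 and 0.352 and 0.136 without KO-labelled replicates 1 and 2, at log2 values of -0.16, -0.25, -0.17 and -0.25, and the adjusted p ran from 0.00441 to 0.361 over all alternatives. Whether *Tdh* and *Gcat* differ from each other in their change was not tested.

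*Gldc* (ENSMUSG00000024827.8, mm9 chr19:30172939-30249908, minus strand) encodes glycine decarboxylase, the P protein that starts glycine cleavage. It had 9360.15 and 8917 normalized counts in WT and 3826 and 4059 in the KO-labelled libraries. Both KO-labelled libraries lay far below both WT libraries. The change on the log2 scale was -1.21 ± 0.08 (SE), the adjusted p from DESeq2 was 5.58e-55, and fits without 1 library gave -1.25 to -1.16. No stretch of its exons had a near-identical copy of the kind searched for.

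**Figure D1:**
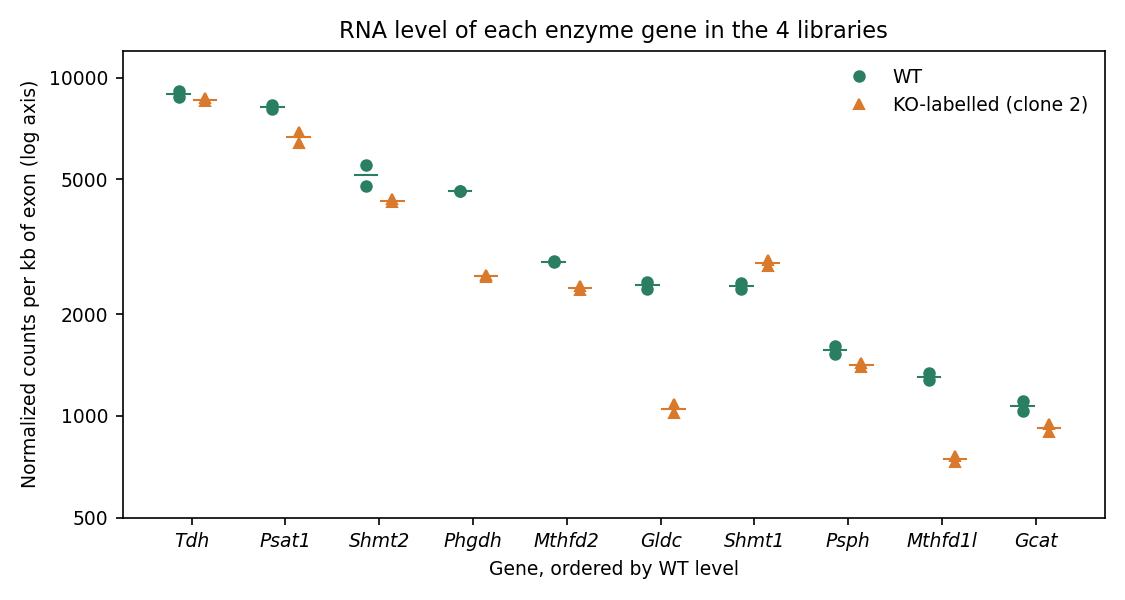
Normalized counts per kb of exon (log axis) of each enzyme gene, with 1 symbol per library and a line at each group mean (circles, 2 WT libraries; triangles, 2 KO-labelled libraries). The *Gldc*, *Phgdh* and *Mthfd1l* symbols are the most separated, *Shmt1* is the gene with higher KO-labelled libraries, and *Tdh* is the most abundant in both groups.

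Levels were compared between genes per kb of annotated exon, which understates genes with many annotated exons that are rarely used. In WT, *Tdh* was highest at 8926 ± 244 (SD, n = 2), followed by *Psat1* at 8192 ± 137, *Shmt2* at 5156 ± 519 and *Phgdh* at 4620.2 ± 7.82. *Mthfd2*, *Gldc*, *Shmt1*, *Psph* and *Mthfd1l* came next, and *Gcat* was lowest at 1071 ± 48.0. Neighbours in this order were separate in both WT libraries except *Gldc* and *Shmt1*, at 2434 ± 83.6 and 2421 ± 63.0. In the KO-labelled libraries *Gldc* stood in place 8 at 1050.2 ± 43.9, *Phgdh* in place 5 at 2588 ± 29.0, and *Mthfd1l* in the last place at 746 ± 23.9. *Shmt1* stood in place 4 there, at 2827 ± 77.1, and no neighbours overlapped.

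The position of each gene was considered because whole chromosomes differed between the lines. Genes with a mean of at least 50 had a median log2 fold change of 0.38 on chromosome 19 (457 genes), which carries *Gldc* and *Psat1*, and of -0.35 on chromosome 10 (613 genes), which carries *Shmt2* and *Mthfd1l*. On the log2 scale *Gldc* was -1.60 from the median of its chromosome, and *Psat1* was -0.68 from it. Only 5 of the 457 genes on chromosome 19 had a lower log2 fold change than *Gldc*, which ranked 6 from the lowest. *Shmt2* lay 0.09 above the median of chromosome 10, and *Mthfd1l* -0.46 from it. *Phgdh* was -0.93 from the median of chromosome 3. *Shmt1*, the gene that rose, was within 0.06 of the median of chromosome 11, which was 0.16. A local comparison used the 10 flanking genes of that minimum mean, 5 on each side. All 10 flanking genes of *Gldc* had higher log2 fold changes than it did (0.05 to 0.84, median 0.37), and so had all 10 of *Phgdh* (-0.37 to 0.39, median 0.01). Of the genes around *Mthfd1l* 1 was lower still, with a median of -0.31 over the 10. *Mthfd2* was -0.07 from its local median of -0.19, and -0.33 from the median when 10 genes on each side were taken.

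**Figure D2:**
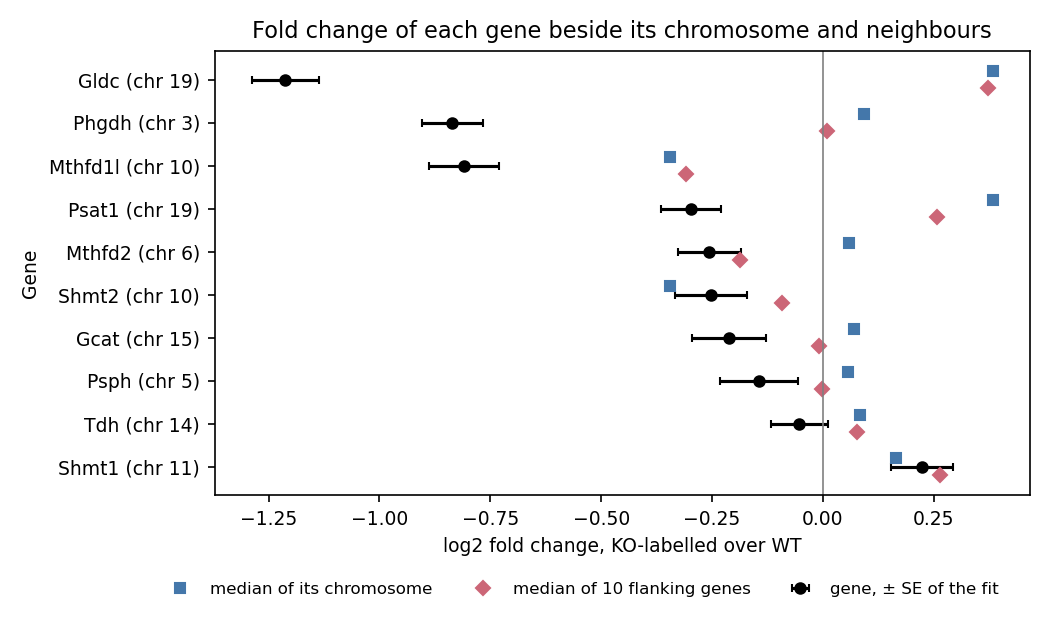
Log2 fold change, KO-labelled over WT, of each enzyme gene (black circles, bars ± SE of the DESeq2 fit, 2 libraries a group) beside the median of its chromosome (blue squares) and of the 10 flanking genes (red diamonds). *Gldc* at -1.21 lies opposite chromosome and flanking medians of 0.38 and 0.37, while *Shmt1* and *Shmt2* lie close to the medians of their chromosomes.

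Ratios of levels per kb within a library do not depend on how libraries were scaled. The ratio of *Gldc* to *Amt*, which encodes the aminomethyltransferase of the same complex, was 0.583 and 0.564 in WT and 0.212 and 0.213 in the KO-labelled libraries. *Phgdh* to *Psat1* went from 0.557 and 0.571 to 0.407 and 0.371, a difference of -0.54 in mean log2 ratio. The gap between these 2 genes was narrower with chromosome medians removed, at log2 fold changes of -0.93 and -0.68. *Mthfd1l* to its cytosolic counterpart *Mthfd1* went from 0.195 and 0.173 to 0.132 and 0.138. The ratio of *Shmt2* to *Shmt1* was 1.94 and 2.32 in WT and 1.57 and 1.49 in the KO-labelled libraries, a difference of -0.47 in mean log2 ratio. The medians of their chromosomes were -0.35 and 0.16, and with these removed the log2 fold changes were 0.09 for *Shmt2* and 0.06 for *Shmt1*, so that difference does not stand apart from that of the chromosomes. *Mthfd2* to its lowly expressed relative *Mthfd2l* went from 72.6 and 65.6 to 41.2 and 43.9, and *Mthfd2l* itself did not pass (adjusted p = 0.339 by DESeq2). These 5 ratios were lower in both KO-labelled libraries than in either WT library. *Tdh* to *Gcat* was 7.92 and 8.77 in WT and 9.65 and 8.99 in the KO-labelled libraries, a difference of 0.16 in mean log2 ratio beside SDs of 0.10 and 0.07. An exact permutation test of 2 libraries against 2 cannot go below a two-sided p of 0.333, and no test was run on the ratios.

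**Figure D3:**
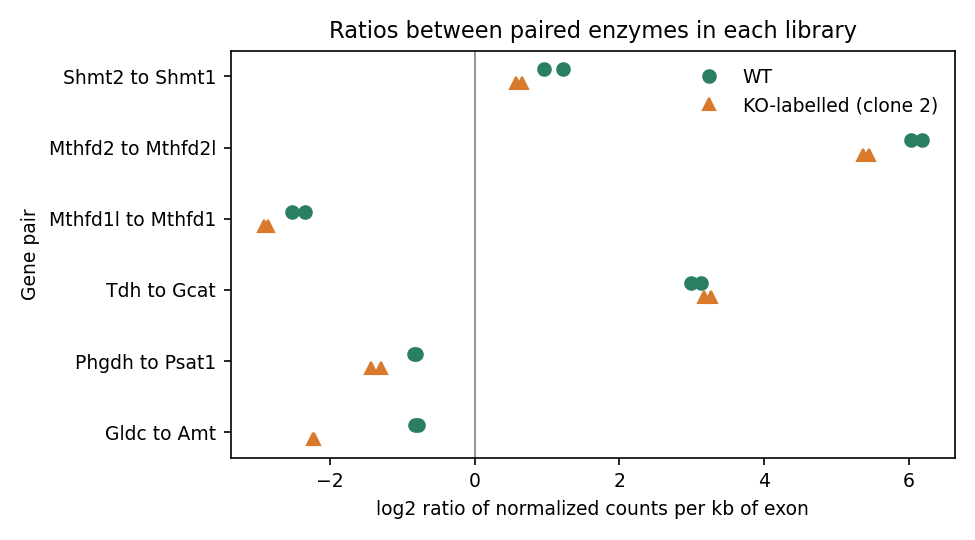
Log2 ratio of normalized counts per kb of exon for 6 gene pairs, with 1 symbol per library (circles, 2 WT libraries; triangles, 2 KO-labelled libraries). The ratio of *Gldc* to *Amt* shows the widest gap, a mean difference of -1.43, and *Tdh* to *Gcat* the narrowest, 0.16.

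Partners of the 10 enzymes were read from lists of related pathways, 62 genes of which 58 were tested. Of all genes tested, 15.8% passed as lower and 16.4% as higher. Among the 3815 genes with a mean at least that of the lowest enzyme gene, the shares were 17.5% and 35.2%. Many genes of these lists have lower means than that, such as *Srr* at 342, so the 3815 do not match them in level. In the lists, 18 passed as lower and 10 as higher. Their median log2 fold change was -0.09, and 0 met the 2-fold thresholds by DESeq2. These counts fell to 10 lower and 4 higher without WT replicate 1, 10 and 5 without WT replicate 2, 9 and 6 without KO-labelled replicate 1, and 10 and 4 without KO-labelled replicate 2. The partners of *Gldc* in the glycine cleavage system had smaller log2 fold changes than *Gldc*. *Amt* was higher at 0.22, *Dld*, which encodes the dihydrolipoamide dehydrogenase, was lower at -0.24, and *Gcsh*, the lipoyl carrier protein, had a log2 fold change of -0.01 (DESeq2 adjusted p = 0.969). *Dld* and *Mthfd1* lie on chromosome 12, whose median was -0.32. Of the other serine and threonine breakdown genes only *Srr*, serine racemase, had enough counts to be tested, and it did not pass (0.18, DESeq2 adjusted p = 0.589).

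In the folate cycle and transport list, 4 of 15 genes were lower. *Slc19a1*, the reduced folate carrier, lies on chromosome 10 and had 1245 ± 22.2 normalized counts in WT against 696 ± 37.4 (SD, n = 2), which is -0.84 on the log2 scale. *Slc46a1*, the proton-coupled folate transporter, fell by 0.57 and *Mthfd1*, the cytosolic enzyme of the cycle, by 0.36 on the log2 scale. In the methionine cycle list 3 of 12 tested genes were higher, among them *Mat2b* (0.40) and *Mtr* (0.24), and 2 were lower. Those were *Cth* (-0.20) and *Bhmt2* (-2.42), the latter at only 33.1 and 6.22 mean normalized counts. Of 8 genes of purine synthesis, which consumes formyl groups from this pathway, 3 were higher, 2 were lower and 3 did not pass. *Pfas* rose by 0.72, *Prps2* by 0.20 and *Ppat* by 0.20, while *Gart* and *Atic*, the enzymes that use formyl-tetrahydrofolate, fell by 0.62 and 0.28. *Gart* lies on chromosome 16, whose median was -0.23.

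Among carriers of serine, glycine and threonine, 4 of 10 tested genes were lower and 2 higher, where 15.8% and 16.4% of all genes were. *Slc6a9*, a glycine transporter, and *Sfxn1*, a mitochondrial serine carrier, were lower, at log2 fold changes of -0.69 and -0.51. The *Slc6a9* counts were low and uneven, at 232 and 309 in WT and 191 and 146 in the KO-labelled libraries. It lies on chromosome 4, whose median was -0.21. *Slc38a1* was at -0.47 and *Slc38a4* rose by 0.37. Of 9 genes of the ATF4 amino acid response, 5 were lower and 0 higher by DESeq2, against the same shares of all genes (15.8% and 16.4%), with a median of -0.39. *Trib3*, *Chac1* and *Atf5* had log2 fold changes of -0.61, -0.47 and -0.45, and *Cebpb* of -1.62 at a mean of 68.2 in WT and 22.3 in the KO-labelled libraries. RNA of *Atf4*, named after its value was seen, did not pass, at -0.02 (DESeq2 adjusted p = 0.899).

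**Figure D4:**
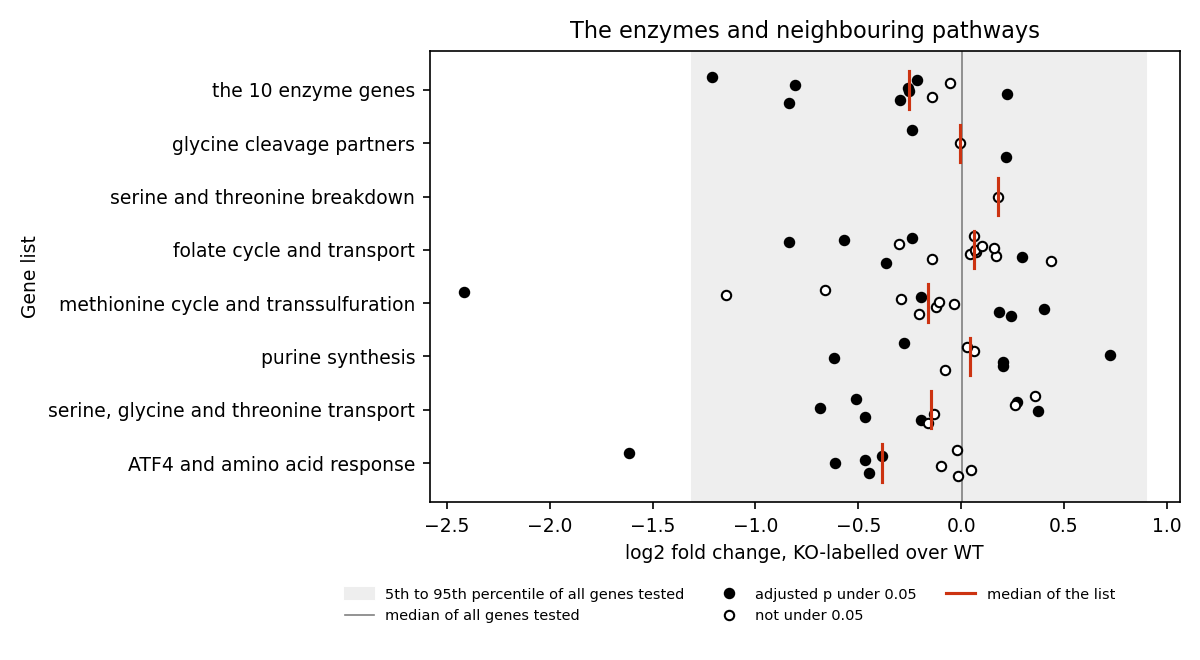
Log2 fold change, KO-labelled over WT, of each tested gene in the 10 enzyme genes and 7 related lists (filled circles, DESeq2 adjusted p under 0.05; open circles, not under 0.05), with the median of each list (red line) and the 5th to 95th percentile of all genes tested (grey band). The 10 enzyme genes have a median of -0.25 and lie within the band, and the ATF4 list has the lowest median, -0.39.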

How the data were processed

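RNA-seq of 4 mESC libraries was used. Libraries were stranded with ribosomal RNA removed, and per the study's methods and the submitters' processing notes paired reads were mapped to mm9 with STAR and assigned to GENCODE vM1 genes with featureCounts. The authors deposited unnormalized counts of reads for each gene. Tool versions, the strand setting and how multiply mapped reads were treated are not given in the sources used here. All 37310 gene identifiers matched the GENCODE vM1 annotation. Columns were matched to samples by name.

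DESeq2 1.42.0 in R 4.3.3 (Wald test, group alone, independent filtering, Benjamini-Hochberg adjustment over all genes) was fitted to the whole table. Passing means an adjusted p under 0.05. The study's thresholds are a fold change of at least 2 with an adjusted p under 0.001. edgeR 4.0.16 was an alternative. The fits were tested on simulated data: DESeq2 and edgeR both recovered most of the changed genes, all with the right sign, but the share of false calls was above the nominal level with either tool, so an adjusted p close to 0.05 is weaker than it reads. Near-identical exonic stretches were found with BLAST 2.17.0+ against NCBIM37. Promoter windows came from RefSeq (GRCm38.p6). The members and lists were chosen with earlier results of these data known. The text names all members, *Spen*, up to 4 passing genes per related list by size of change, ratio partners and the highest and lowest marker of each list. Outside this rule *Gcsh*, *Srr*, *Gata4*, *Lum*, *Atf4*, *Ppat* and the genes that overlap a member were named after their values were seen. A gene of the folate list that this rule selects is not reported here.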

Additional observations from a re-analysis of the deposited data

How the results depend on the processing

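Across the 10 enzyme genes and 10 alternative fits (100 values), 82 kept direction and side of the 0.05 threshold, 17 lost the call and 1 reversed, *Shmt2* at 0.094 with chromosome medians removed. *Gldc*, *Phgdh*, *Mthfd1l* and *Psat1* passed in all 10. Removing chromosome medians left 0 enzyme genes higher and 6 related-list genes higher. Libraries share only a replicate number (correlation of same-numbered deviations -0.018). With the replicate number as a block, 4 enzyme genes were lower and 0 higher, and 11 and 5 related-list genes. *Shmt1*, *Shmt2*, *Mthfd2* and *Gcat* lost their calls in that fit, with DESeq2 adjusted p of 0.091, 0.0698, 0.0513 and 0.183. Fits without 1 library, in which the lone library of a group is assumed to vary like the others, gave 4 to 6 lower and 0 to 1 higher enzyme genes, 9 to 10 lower and 4 to 6 higher related-list genes, 332 to 404 genes called lower and 137 to 185 called higher in all. Fewer libraries enter these fits. Dropping the 2-fold minimum but keeping 0.001 gave 4 enzyme genes lower, and 1571 lower and 1499 higher genes in all, against 558 and 241.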
